A study of Mus musculus with 16 samples.

Results

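Clusters deep inside first introns made up 303253 of the 1331383 clusters deposited for 8 libraries of PGC-1α crosslinked RNA from mouse primary hepatocytes. A cluster is a stretch of piled-up reads on 1 strand, for which the authors deposited a log2 fold over input and a −log10 p-value. A cluster was counted here when its midpoint lay in the first intron of the gene's protein-coding transcript with the longest coding sequence (GENCODE M21, mm10), on the same strand, outside every annotated exon of that strand and more than 500 nt from both flanking exons. Such clusters lay in 5514 of the 14543 genes whose first intron is long enough to hold one. Among them 532 lay in the first introns of 2 genes and were given to the gene with the nearer 5′ end, and 18.4% also lay in a later intron of another transcript of the gene. Exons of the other strand were not part of the criterion, and 0.742% of the clusters lay in one.

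The libraries came from cultured primary hepatocytes of C57BL/6J mice, kept in high-glucose maintenance medium and then in starvation medium overnight. The 4 groups were glucagon-treated cells (200 nM, 3 h), lower band and upper band, and untreated control cells, lower band and upper band, with 2 replicates each. RNA was linked to protein by ultraviolet light at 254 nm and recovered with an antibody to PGC-1α by single-end eCLIP, and 8 inputs are listed in the series but were not analysed here. The labels do not say which molecular sizes the bands hold, whether the control cells also stood in starvation medium beyond the shared protocol text, or whether replicates came from separate cultures or mice, so p-values measure only the spread between libraries, which may be technical.

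PGC-1α is a coactivator of transcription that switches on fasting genes in the liver, and it carries RNA-binding motifs in addition to its contacts with transcription factors. The first intron is usually the longest intron of a gene and the first to be transcribed. It is part of the pre-mRNA in the nucleus and is removed by splicing, so clusters there come from RNA in which that intron had not been degraded.

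The labelled cell type fitted the RNA in the libraries. All 10 hepatocyte marker genes, among them Alb and Cps1, had clusters in each of the 8 libraries, 3741 in all. Of 6 markers each, 1 Kupffer cell gene (Cd68, 44 clusters), 1 endothelial gene (Stab2, 1 cluster), 1 stellate cell gene (Reln, 6 clusters) and 2 cholangiocyte genes (Sox9 and Spp1, 23 clusters) had any, and the other markers of those 4 lists were at 0. Cd68 had 3 to 8 clusters in each of the 8 libraries. Serpina1a, the hepatocyte marker with fewest clusters (48), had 5 to 7. Cluster number is the only measure of depth in the files, and read depth is unknown. Glucagon lower band replicate 1 stood apart with 26279 clusters, 4039 of them deep in first introns, against 97629 to 260814 and 22018 to 63204 in the other 7 libraries.

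Sequences of 7 genes show what the recurrent sites look like. They were picked after their values were seen and need not be every site that could be read. All have clusters in all 8 libraries. Their bases were read from the RefSeq promoter table (GRCm38.p6, the mm10 assembly) or from exons of GENCODE M21 transcripts, and so they lean towards the starts of transcripts. Each is given 5′ to 3′ on the strand of the gene, on mm10. Within the part of a site that could be read, capitals mark the longest run of bases covered by clusters of the most libraries. These were 7 libraries in Cd81, Hnrnpf and Tcf20 and all 8 in the others.
Zmiz1, chr14:25460119-25460238, plus strand: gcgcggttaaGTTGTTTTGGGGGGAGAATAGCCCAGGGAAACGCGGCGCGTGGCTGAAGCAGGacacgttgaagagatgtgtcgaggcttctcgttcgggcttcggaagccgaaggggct
Zmiz1, chr14:25460495-25460614, plus strand: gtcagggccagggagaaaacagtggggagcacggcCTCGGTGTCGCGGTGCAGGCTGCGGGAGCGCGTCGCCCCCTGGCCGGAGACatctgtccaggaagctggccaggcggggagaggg
Hnrnpf, chr6:117907669-117907788, plus strand: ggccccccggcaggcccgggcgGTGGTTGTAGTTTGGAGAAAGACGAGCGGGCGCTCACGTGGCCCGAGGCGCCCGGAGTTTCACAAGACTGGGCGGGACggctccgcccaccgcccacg
Tcf20, chr15:82899010-82899129, minus strand: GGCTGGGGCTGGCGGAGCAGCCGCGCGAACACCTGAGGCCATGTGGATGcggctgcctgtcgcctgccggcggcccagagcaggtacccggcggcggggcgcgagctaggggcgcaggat
Gse1, chr8:120537605-120537724, plus strand: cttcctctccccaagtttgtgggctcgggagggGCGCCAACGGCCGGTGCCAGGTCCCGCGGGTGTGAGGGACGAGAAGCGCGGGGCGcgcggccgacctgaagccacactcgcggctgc
Nectin1, chr9:43745707-43745820, plus strand: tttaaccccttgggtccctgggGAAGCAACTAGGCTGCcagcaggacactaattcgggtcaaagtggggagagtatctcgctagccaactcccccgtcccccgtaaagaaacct
Cd81, chr7:143053746-143053865, plus strand: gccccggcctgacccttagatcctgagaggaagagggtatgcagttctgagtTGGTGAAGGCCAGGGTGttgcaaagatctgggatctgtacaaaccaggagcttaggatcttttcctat
Srebf1, chr11:60210606-60210696, minus strand: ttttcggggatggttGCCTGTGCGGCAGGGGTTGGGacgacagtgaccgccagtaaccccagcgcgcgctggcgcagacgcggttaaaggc
The Zmiz1, Gse1 and Nectin1 stretches were read from exons of the antisense genes Zmiz1os1, 1700016A09Rik and Gm30015, as the reverse complement. These clusters were called on the strand of Zmiz1, Gse1 and Nectin1. The Tcf20 and Cd81 stretches were read from promoter windows of other genes, Gm20324 and R74862. Those of Hnrnpf and Srebf1 were read from promoter windows of the same genes. The Srebf1 site lay 9949 nt from the 5′ end of the chosen transcript, in an intron of 13195 nt. When clusters in exons of the other strand were left out, the Hnrnpf site shrank to chr6:117907829-117908087. The printed Hnrnpf stretch lies outside that remaining part.

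Most of these stretches were richer in G and C than a typical promoter. The GC content was 60.0% and 71.7% in the Zmiz1 stretches, 73.3% in Hnrnpf, 75.8% in Tcf20 and 73.3% in Gse1. It was 56.1% in Nectin1, 51.7% in Cd81 and 65.9% in Srebf1. Promoter windows of RefSeq, from 250 bases before to 50 after a start, had a median of 52.7% over 32851 windows, with quartiles of 45.7% and 61.7%. The Tcf20 and Gse1 stretches lie far down the first intron, 12986.5 nt and 49218 nt from the 5′ end of the chosen transcript for the whole site, and each lies near the start of another transcript of the gene, 690.5 nt and 236 nt downstream of it.

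The first comparison was between first introns and the rest of the RNA. Deep first-intron clusters were enriched over input more often than deep clusters of later introns in every library. A cluster was taken as enriched at a log2 fold of at least 3 and a −log10 p of at least 3. With glucagon, 6.66% and 2.25% of deep first-intron clusters were enriched in lower band libraries and 5.31% and 5.58% in upper band libraries. Controls had 5.27% and 5.45% for the lower band and 3.28% and 3.94% for the upper band. Over all clusters of the same libraries the background was 3.73% and 1.5% in lower band glucagon libraries, 3.37% and 3.66% in upper band glucagon libraries, 3.1% and 3.19% in lower band control libraries and 2.05% and 2.5% in upper band control libraries. Glucagon lower band replicate 2 had the lowest share in first introns and also the lowest background.

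The mean share was 4.72% ± 1.44 in deep first introns and 2.73% ± 1.53 in deep later introns of the same transcripts (SD, n = 8 libraries). First introns exceeded later introns by 1.99 ± 0.815 percentage points, in the same direction in 8 of 8 libraries (two-sided exact sign-flip test, p = 0.00781, Benjamini-Hochberg adjusted p = 0.00781 over 6 tests). Against all other clusters of the library, at 2.39% ± 0.670, the difference was 2.33 ± 0.796 points (exact sign-flip p = 0.00781, adjusted p = 0.00781, 8 of 8). Each p is the smallest that sign flips over 8 libraries allow. The bands counted as separate units, and their independence is unknown. With bands averaged into 4 units the same differences had an exact p of 0.125, the smallest then possible.

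**Figure D1:**
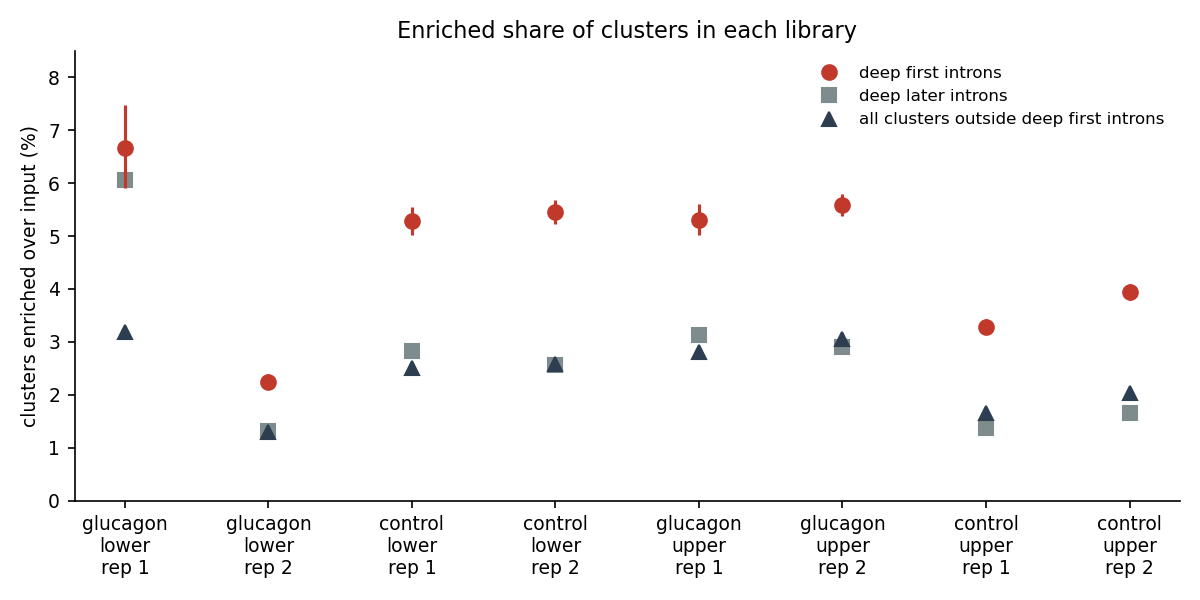
Percent of clusters enriched over input (y axis) in each library (x axis) for deep first introns (red circles, with exact 95% binomial intervals), deep later introns (grey squares) and all clusters outside deep first introns (dark triangles). First introns lie highest in all 8 libraries, at 2.25% to 6.66%, with glucagon lower band replicate 1 closest to its later introns at 6.66% against 6.06%.

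The exact 95% binomial interval (Clopper-Pearson) was 5.91% to 7.47% in glucagon lower band replicate 1, the smallest library, and 3.79% to 4.10% in control upper band replicate 2, the largest. Intervals cover counting error only. In glucagon lower band replicate 1 the share in later introns, 6.06%, fell inside the interval of first introns. In all, 13088 deep first-intron clusters in 1169 genes were enriched, and they supplied 35.1% ± 3.72 of all enriched clusters of a library, while deep first-intron clusters were 21.8% ± 2.89 of all clusters. Restricted to genes with deep clusters in both kinds of intron, and with each gene counted once, first introns exceeded later introns by 1.55 points (exact sign-flip p = 0.00781, n = 8). Within bins of intron length the difference was 1.77 points (exact sign-flip p = 0.0156, n = 8) and within 4 wide bins of distance from the 5′ end it was 1.22 points (exact sign-flip p = 0.00781, n = 8). Within 7 narrower bins over 1000 nt, added after the data were seen, it was 0.609 ± 0.375 points (SD, n = 8, exact sign-flip p = 0.0156, 7 of 8 libraries). With each gene counted once, the excess over all other clusters was 0.684 points (exact sign-flip p = 0.0312, n = 8).

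Position along the intron was the measure with the widest spread. Of clusters at most 1000 nt from the 5′ end of the transcript 17.1% ± 3.79 were enriched, and of those at 1000 to 2000 nt 11.03% ± 2.40. The share was 4.40% ± 1.47 at 2000 to 5000 nt and stayed between 3.61% and 3.81% in the 3 bins from 5000 to 50000 nt. It was 2.98% ± 0.910 at 50000 to 100000 nt and 1.14% ± 0.492 beyond (SD, n = 8 libraries). The bin up to 1000 nt held 12.0% of the enriched clusters and 3.07% of all deep first-intron clusters. The bin from 1000 to 2000 nt held 18.8% and 7.57%.

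**Figure D2:**
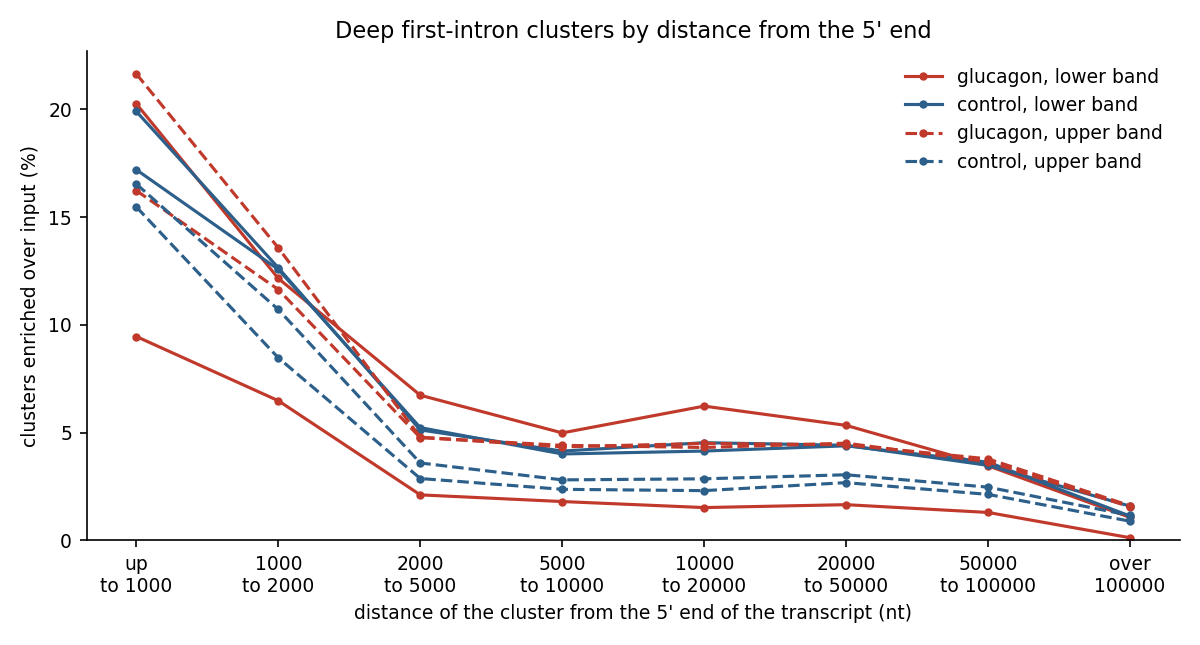
Percent of deep first-intron clusters enriched over input (y axis) by distance from the 5′ end of the transcript in nt (x axis, 8 bins of unequal width), with 1 line per library. All 8 lines are highest in the bin up to 1000 nt, at 9.46% to 21.6%, and lowest beyond 100000 nt, at 0.120% to 1.61%.

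Clusters up to 2000 nt from the 5′ end were enriched in 14.5% and 7.34% of cases in lower band glucagon libraries, 12.9% and 15.97% in upper band glucagon libraries, 13.9% and 14.8% in lower band control libraries and 10.4% and 12.4% in upper band control libraries. For clusters over 10000 nt away the shares were 5.19% and 1.49% in lower band glucagon libraries, 4.20% and 4.25% in upper band glucagon libraries, 4.04% and 4.20% in lower band control libraries and 2.38% and 2.80% in upper band control libraries. The lowest near share, 7.34%, lay above the highest far share, 5.19%. The near group exceeded the far group by 9.20 ± 1.76 points (12.8% ± 2.77 against 3.57% ± 1.22, SD, n = 8, exact sign-flip p = 0.00781, adjusted p = 0.00781, 8 of 8 libraries). In introns of 20000 nt and over alone the difference was 13.3 points, and without introns that hold the 5′ end of another transcript of the gene it was 7.46 points (exact sign-flip p = 0.00781 each, n = 8).

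Clusters themselves were also denser near the start, but less so than enriched ones. Per kilobase of deep intron and per library there were 0.887 clusters within 1000 nt and 0.569 at 1000 to 2000 nt, between 0.368 and 0.441 in the bins from 2000 to 50000 nt, and 0.102 beyond 100000 nt. Enriched clusters numbered 0.149 and 0.0610 per kilobase in the first 2 bins, 0.0127 to 0.0173 in the bins from 2000 to 50000 nt and 0.00115 beyond 100000 nt. The kilobases are those of first introns that had a cluster. The median distance of a deep first-intron cluster from the 5′ end was 12174 to 12784 nt per library, and that of an enriched one 5422 to 7980 nt. Enriched clusters were also wider, with medians of 59 to 68 nt against 40 to 46 nt for all deep first-intron clusters.

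Along introns of 20000 nt and over, split into 5 segments of equal length, the 5′ segment held 45.0% ± 3.64 of the enriched clusters and 30.7% ± 2.29 of all clusters (SD, n = 8 libraries). Its clusters were enriched in 6.48% ± 1.40 of cases. In the other segments the enriched share was flat, at 3.71%, 3.49%, 3.64% and 3.86% towards the 3′ end. The enriched share did not change abruptly at the 500 nt limit, with 15.0% ± 3.63 just inside it (over 500 to 600 nt from the nearer exon, 5958 clusters) and 14.5% ± 3.32 just outside it (over 400 to 500 nt, 6791 clusters).

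Later introns differed from first introns by distance from the upstream exon, but shared the rise towards the 5′ end of the transcript. In first introns, deep clusters up to 1500 nt from the upstream exon were enriched in 13.5% ± 2.86 of cases and those over 10000 nt away in 3.57% ± 1.22. In later introns the order was the opposite, at 2.28% ± 1.43 near and 3.03% ± 1.76 far (SD, n = 8). The near minus far difference was 10.7 ± 2.08 points larger in first than in later introns (exact sign-flip p = 0.00781, adjusted p = 0.00781, 8 of 8 libraries). By distance from the 5′ end of the transcript, later introns also had a higher share near it, 10.2% ± 3.32 up to 2000 nt (1840 clusters, 28 in the smallest library) against 2.63% ± 1.61 over 10000 nt. That difference was 9.20 ± 1.76 points in first introns and 7.61 ± 4.38 in later introns, where 7 of 8 libraries had it. First exceeded later by 1.59 ± 4.39 points, in 5 of 8 libraries, and the excess did not pass (exact sign-flip p = 0.430, n = 8). Of the 1840 near clusters of later introns 1793 lay at 1000 to 2000 nt. Up to 1000 nt later introns had 47 clusters, 0 in the smallest library, with 2.38% ± 6.30 enriched against 17.1% ± 3.79 in first introns. So few clusters cannot show whether later introns share the peak there. At 1000 to 2000 nt the enriched share was 11.03% ± 2.40 in first introns and 10.5% ± 3.34 in later introns, and at 2000 to 5000 nt it was 4.40% ± 1.47 in first introns and 4.72% ± 1.43 in later introns. Beyond 100000 nt first introns were lower in 8 of 8 libraries, at 1.14% ± 0.492 against 2.48% ± 1.58 in later introns. Both distance comparisons between first and later introns were added after the data were seen.

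**Figure D3:**
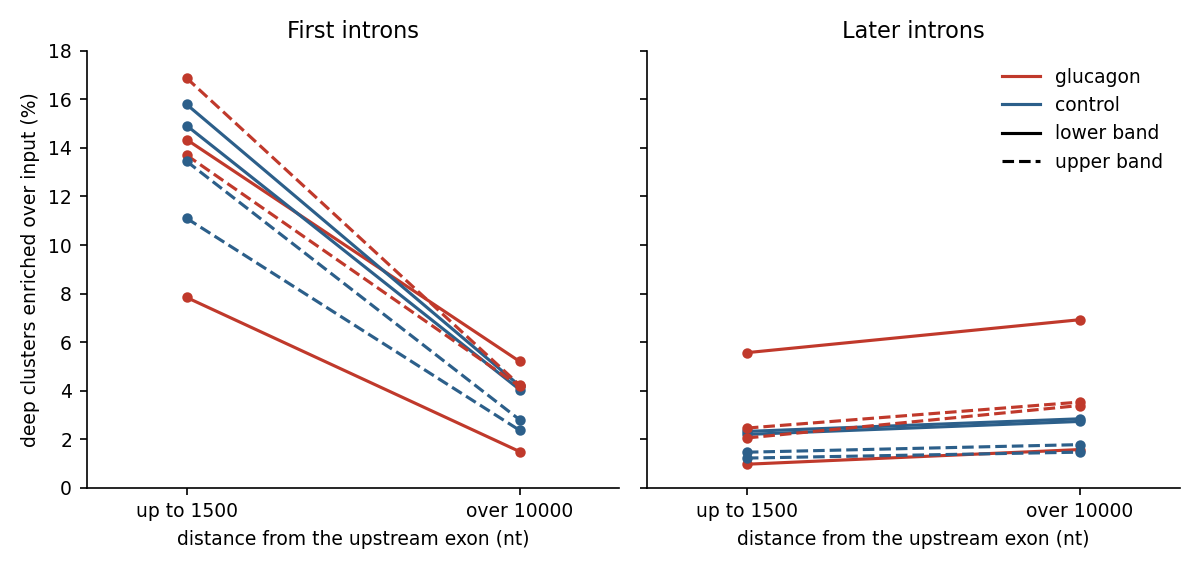
Percent of deep clusters enriched over input (y axis) near the upstream exon and far from it (x axis, distance in nt) in first introns (left) and later introns (right), with 1 line per library. The 8 lines fall in first introns, with means of 13.5% near and 3.57% far, and rise in later introns, with means of 2.28% near and 3.03% far.

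Starts of other transcripts inside the intron showed the same pattern on a smaller scale. Of first introns with a cluster, 35.2% hold the 5′ end of another transcript of the gene. Among clusters over 10000 nt from the chosen 5′ end, those 500 to 2000 nt downstream of such an internal 5′ end were enriched in 6.89% ± 2.33 of cases. Those over 10000 nt downstream of the nearest upstream 5′ end of the gene were enriched in 3.25% ± 1.13. Only 5′ ends upstream of a cluster were measured, so clusters just upstream of a start can be among them. The difference was 3.64 ± 2.05 points (exact sign-flip p = 0.00781, adjusted p = 0.00781, 8 of 8 libraries), also added after the data were seen. In glucagon lower band replicate 1 it rested on 60 clusters, with 5% against 4.86%.

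Intron length gave a smaller difference that depended on position. In introns under 10000 nt 6.48% ± 2.96 of deep first-intron clusters were enriched, against 3.87% ± 0.969 in introns of 50000 nt and over, a difference of 2.60 ± 2.60 points (SD, n = 8, exact sign-flip p = 0.00781, adjusted p = 0.00781, 8 of 8 libraries). Glucagon lower band replicate 1 weighed most, with 13.0% in short and 4.002% in long introns, and without it the difference was 1.70 points. Among clusters up to 5000 nt from the 5′ end alone the contrast turned to −3.82 points and missed the threshold (exact sign-flip p = 0.0625, n = 8). The first minus later difference also varied with length, from 7.94 ± 4.06 points in introns under 5000 nt (8 of 8 libraries) to 0.706 ± 1.19 in introns of 50000 nt and over (7 of 8 libraries).

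The next question was which sites recurred. Clusters of all libraries that shared at least 1 base merged into 171242 sites with a median width of 45 nt. A cluster was present in all 8 libraries at 488 sites and in 1 library at 110515. Enrichment recurred less, with 5139 sites enriched in 1 library, 105 in 6, 37 in 7 and 16 in all 8. The share of sites within 2000 nt of the 5′ end was 18% at those enriched in 1 library, 44.1% in 4, 64.9% in 7 and 87.5% in 8, against 8.86% at sites enriched in none. Recurrence and enrichment both need clusters to be called, so these shares describe the sites and were not tested.

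Sites enriched in at least 6 libraries numbered 158, in 97 genes, of which 94 lay within 2000 nt of the chosen 5′ end. Of the other 64 sites 12 lay within 2000 nt downstream of another 5′ end of the gene. Beyond 10000 nt there were 35, of which 4 lay that near, and downstream of, another 5′ end. Nearness to a start further downstream was not measured. The authors' reproducible lists held 54 deep first-intron peaks of 413 listed in lower band glucagon libraries, 643 of 2167 in upper band glucagon libraries, 721 of 2206 in lower band control libraries and 1358 of 3692 in upper band control libraries. Of these 61.1%, 42.8%, 40.1% and 42.0%, in the order just given, lay within 2000 nt of the 5′ end.

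Ctnnb1 encodes β-catenin, the adhesion protein and Wnt coactivator, and its site had the highest mean fold of the 16. It lay 868 nt from the 5′ end at chr9:120934144-120934399, with log2 folds of 3.88 and 5.13 in lower band glucagon libraries, 5.38 and 4.65 in upper band glucagon libraries, 5.21 and 5.31 in lower band control libraries and 5.32 and 5.40 in upper band control libraries. Glucagon and control libraries overlapped.

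Ncoa2 encodes a p160 coactivator of nuclear receptors, and 2 of its sites were enriched in all 8 libraries. The stronger lay at chr1:13373055-13373338, 914.5 nt from the 5′ end of an intron of 87912 nt. Its log2 folds were 5.27 and 4.09 in lower band glucagon libraries, 4.80 and 4.85 in upper band glucagon libraries, 5.46 and 5.74 in lower band control libraries and 4.98 and 4.34 in upper band control libraries.

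Zmiz1 encodes a coregulator of nuclear receptors and SMAD proteins, and 2 sites shown above lay in its intron. The site at chr14:25460352-25460779, 1329 nt from the 5′ end, varied least of the 16, with a mean log2 fold of 4.85 ± 0.22 (SD, n = 8 libraries) and a range of 4.47 to 5.12. The neighbouring site at chr14:25460119-25460342 ranged from 3.75 to 5.94. Both lie opposite exons of Zmiz1os1, and they and the Tcf20 site were lost from the 16 when clusters in exons of the other strand were left out.

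Eif4a1 encodes a helicase of translation initiation and has a first intron of only 1302 nt. Its 17 deep clusters, summed over 8 libraries with 1 to 3 in each, were all enriched. The site at chr11:69671471-69671617 had log2 folds of 4.20 and 4.84 in lower band glucagon libraries, 4.39 and 6.61 in upper band glucagon libraries, 5.0 and 4.18 in lower band control libraries and 4.15 and 5.74 in upper band control libraries. Lmbrd1, which encodes a lysosomal membrane protein of cobalamin metabolism, was 1 of 2 genes among the 13 whose site lay beyond 2000 nt. Its site at chr1:24684035-24684248 lay 5507 nt from the 5′ end in an intron of 6580 nt, at a mean log2 fold of 4.59 ± 0.37 (SD, n = 8). The other was Tcf20, a transcriptional coregulator gene, at 12986.5 nt. Named after their values were seen, the remaining genes with such sites were Cdkn1a (the cell cycle inhibitor p21), Hnrnpf, Tex2, Ube2g1, Morf4l1, Myh9 and Nfe2l2 (the antioxidant transcription factor NRF2), with mean log2 folds between 3.58 and 4.49.

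Except in Hnrnpf, the sites with the highest mean fold in 1 group also had clusters in others. The Hnrnpf site, 1515 nt from the 5′ end at chr6:117908287-117908387, had 4.10 and 6.36 in upper band control libraries and no cluster in any other group. Pacsin2, an endocytic adaptor gene, had a site 18434 nt into its intron at chr15:83446124-83446229 with log2 folds of 4.79 and 4.80 in lower band glucagon libraries. It had 2.05 and 2.43 in upper band glucagon libraries, 2.58 and 2.20 in lower band control libraries and 2.97 and 3.13 in upper band control libraries. Galnt2, a glycosyltransferase gene, had a site 11256.5 nt in, with 5.03 and 5.25 in upper band glucagon libraries, 3.82 and 2.81 in upper band control libraries and no cluster in the lower band. Zbtb7a, a zinc finger repressor gene, had a site 1328 nt in, with 5.67 and 4.72 in upper band glucagon libraries, a cluster in 1 control upper band library at 4.25 and none in the lower band. In Ecpas, a proteasome adaptor gene, a site 1373.5 nt in had 4.82 and 5.57 in lower band control libraries and was enriched in 6 of 8 libraries. Zeb1, a zinc finger repressor gene, had 5.40 and 5.68 in upper band control libraries at a site 749.5 nt in, with no cluster in 1 glucagon lower band library. These sites were taken for their fold in 1 group, so the contrast between groups is a description.

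Some recurrent sites lay far downstream of the nearest upstream start annotated for their gene. The site of Ext1, a heparan sulfate polymerase gene, lay 94801 nt into an intron of 236830 nt at chr15:53251279-53251433, with a mean log2 fold of 3.59 ± 0.51 and enrichment in 6 of 8 libraries. Gse1 had a site at 60098.5 nt with 3.65 ± 0.79, and Agap1 one at 50425 nt with 3.65 ± 0.69 (SD, n = 8 libraries each). The site of Gnas, which encodes the stimulatory G protein α subunit that couples the glucagon receptor to cyclic AMP, lay at 33262 nt but only 834 nt from another 5′ end of the gene, with 3.87 ± 0.56 in 7 libraries. The nearest recurrent sites were those of Eif4a1 at 546.5 nt, Tex2 at 610.5 nt, Daam1, a formin gene, at 704 nt, and Chd7, a chromatin remodeller gene, at 708 nt.

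Enriched clusters were concentrated in few genes. Where no library is named, counts and shares per gene or list are sums over the 8 libraries. The same site can thus be counted once in each library. The 10 genes with most held 17.7% of the 13088 and the 50 with most held 42.2%, while 343 genes had 1 enriched cluster and 78 had at least 1 in every library. Genes with an enriched cluster had a median first intron of 20909 nt, against 9173 nt for all genes with a deep first-intron cluster. Magi1, a junction scaffold gene, had the most deep first-intron clusters of all, 2098, of which 49 were enriched. Agap1, an Arf GTPase-activating protein gene, had the most enriched ones, 509 of 1826, or 3.89% of the total.

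The introns with most enriched clusters were bound in different places. In Agap1, whose first intron spans chr1:89455593-89604597 (149005 nt), enriched clusters ran from 5421 to 145726 nt from the 5′ end, 0 of them within 2000 nt, and 21.6% lay between 40000 and 50000 nt. In Rxra, which encodes the shared partner of many nuclear receptors, they ran from 814 to 56684 nt, with 5.23% of 306 within 2000 nt. In Zmiz1 68 of 208 lay within 2000 nt and the rest in groups further along. In Cpt1a, which encodes the carnitine palmitoyltransferase of mitochondrial fatty acid entry, 25 of 94 lay within 2000 nt.

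**Figure D4:**
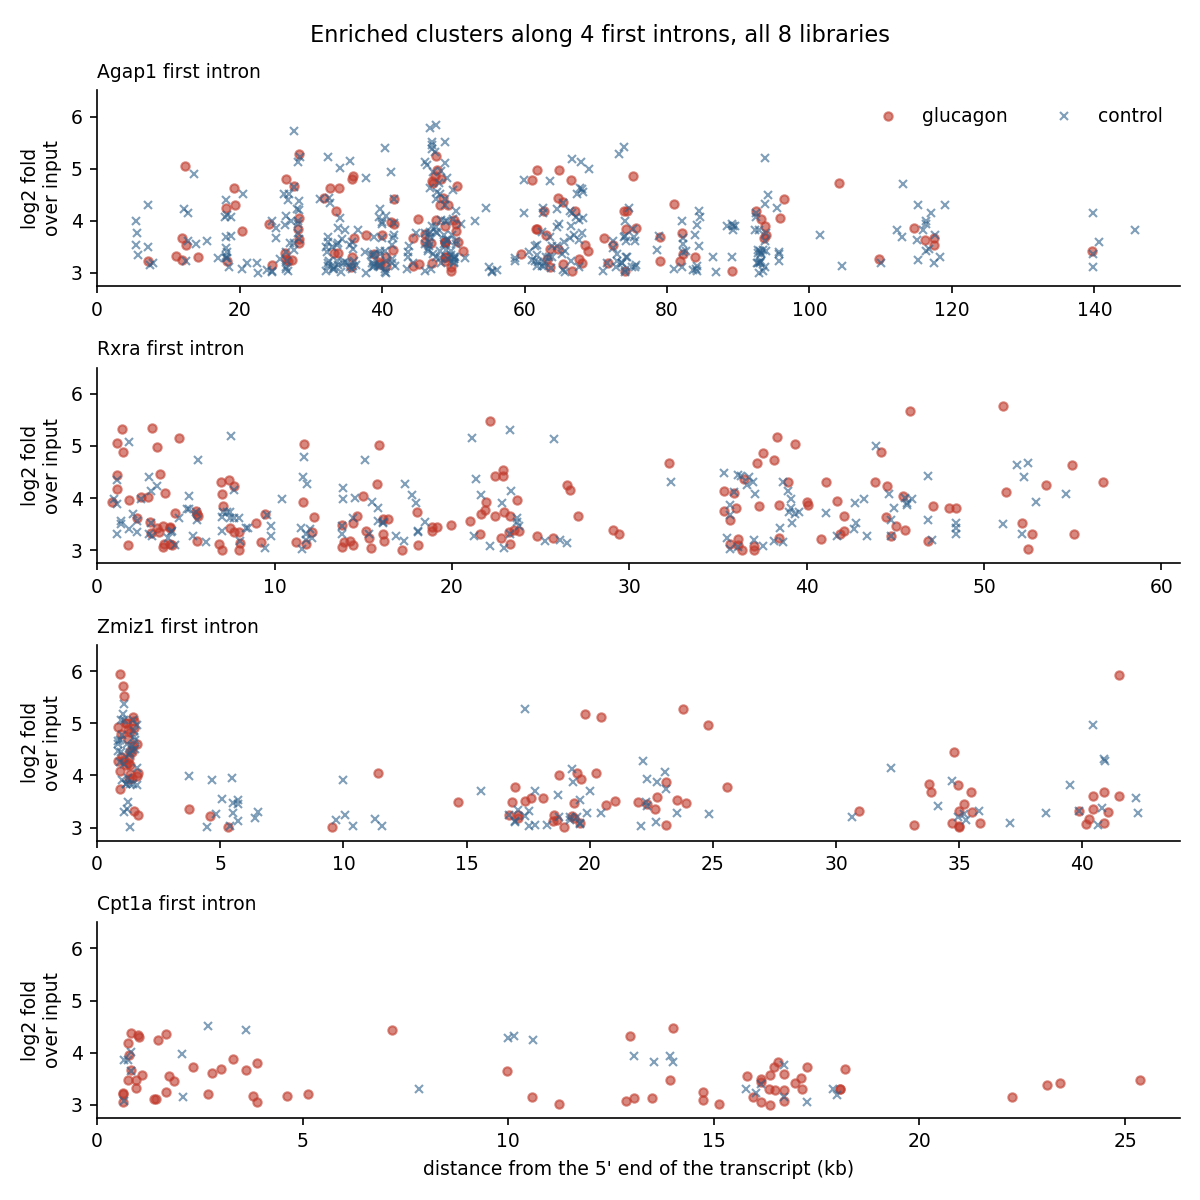
Log2 fold over input (y axis) of every enriched cluster against its distance from the 5′ end in kb (x axis, full first intron of each gene) in Agap1, Rxra, Zmiz1 and Cpt1a, all 8 libraries together, with glucagon as red circles and control as blue crosses. Zmiz1 shows a dense group at its 5′ end, with 68 of 208 clusters within 2000 nt, while Agap1 has 0 there and 21.6% between 40000 and 50000 nt.

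Other genes with many enriched clusters were Ski, a SMAD corepressor gene (250 of 703), Iffo2, an intermediate filament family gene (243 of 510), Cmip, a signalling adaptor gene (203 of 1300), Myh9, a myosin heavy chain gene (183 of 705), and Actn1, an actin crosslinker gene (162 of 924). Of a gene's clusters, 60.2% were enriched in Zbtb7a (59 of 98), 58.6% in Kdm6b, a histone demethylase gene (41 of 70), 47.6% in Iffo2 and 43.2% in Rxra, while Eif4a1 above had 17 of 17.

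By function, enriched clusters were counted in lists of genes. The background was 1169 of 5514 genes (21.2%) with an enriched cluster, and 4.32% of clusters enriched. Lists and genes were chosen with earlier results of these data known, and no list was tested. A gene with more clusters has more chances to hold an enriched one, and lists were not matched for cluster number. Among nuclear receptors and coregulators 15 of 23 genes with a deep first-intron cluster had an enriched one, and 16.3% of 3118 clusters were enriched. Rxra held 306 of the 508 enriched clusters and Ncoa2 held 46. The cytoskeleton, adhesion and small GTPase list had 20 of 29 genes and 10.2% of 12120 clusters enriched, against 303253 clusters in all 5514 genes. Agap1 held 509 of its 1239 enriched clusters, Myh9 183 and Actn1 162, so its share rests largely on few genes. Among chromatin regulators 17 of 28 genes and 9.61% of clusters were enriched. Most of the 388 enriched clusters lay in Zmiz1 (208), Chd7 (66) and Kdm6b (41).

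Metabolic and hormonal lists had the following counts. Fatty acid oxidation had 3 of 13 genes, Cpt1a with 94 enriched clusters, Acsl5 with 3 and Acsl1 with 1. Of its clusters 14.4% were enriched. The glucagon and cyclic AMP list had 11 of 23, led by Foxo1, a fasting transcription factor gene (22), Klf9, a Krüppel-like factor gene (19), and Akap1, a mitochondrial kinase anchor gene (14). Its share of clusters enriched was 3.82%, below the background of 4.32%. The clock list had 8 of 14, with Nfil3, a repressor gene of clock output, at 11, the kinase gene Csnk1e at 8 and Arntl, which encodes the core activator BMAL1, at 7. Of the clock list's clusters 3.88% were enriched, also below the background. Insulin and FoxO signalling had 9 of 19, with Foxo1 again, the kinase gene Pdpk1 (7) and Akt2 (3), and 1.71% of its clusters enriched. Lipid and cholesterol synthesis had 7 of 18, and 36 of its 46 enriched clusters lay in Srebf1, the sterol-regulated transcription factor gene of lipid synthesis, ahead of Lpin2 (3) and Agpat3 (2). Its share of clusters enriched was 4.43%.

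Gluconeogenesis and glycolysis had 1 enriched cluster among 11 genes, in Pgk1, and 165 clusters. Abundant secreted proteins had 0 among 6 genes and 41 clusters, which allows no firm statement at this depth. Splicing factors and hnRNPs had 8 of 30, with 51 of 73 enriched clusters in Hnrnpf, an hnRNP gene, and 5 each in Mbnl2, a muscleblind splicing regulator gene, and Srsf4, an SR protein gene. Of this list's clusters 3.68% were enriched. Among the hepatocyte markers 2 of 10 had a deep first-intron cluster, and Hnf4a, a master transcription factor gene of hepatocytes, had 3 enriched ones. The Kupffer, endothelial, stellate and cholangiocyte markers had 0 deep first-intron clusters.

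Treatment was examined last, and no summary of deep first introns passed its test. They made up 15.4% and 21.1% of a library's clusters in lower band glucagon libraries and 22.6% and 24.0% in upper band glucagon libraries. Controls had 21.4% and 21.5% for the lower band and 24.0% and 24.2% for the upper band, so within each band both glucagon libraries lay below both controls. The difference, glucagon minus control, was −2.04 points averaged over bands (exact permutation of treatment within bands, two-sided, p = 0.0556, adjusted p = 0.222 over 4 tests, n = 4 a side). This is the smallest p that 36 assignments can give, so the design cannot pass 0.05. By band it was −3.22 points for the lower and −0.856 for the upper band, and −0.598 points over both bands without glucagon lower band replicate 1.

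The enriched share of deep first-intron clusters differed by 0.463 points (4.95% ± 1.89 with glucagon, 4.49% ± 1.05 in the control, SD, n = 4, exact permutation p = 0.778, adjusted p = 0.778). It was −0.907 points in the lower band, where the glucagon libraries lay on both sides of the controls. In the upper band it was 1.83 points, with both glucagon libraries above both controls. Without glucagon lower band replicate 1 it was −0.640 points over both bands. The excess of first over later introns was 1.60 ± 0.991 points with glucagon and 2.38 ± 0.402 for controls, which is −0.781 points (SD, n = 4, exact permutation p = 0.278, adjusted p = 0.370). The median distance from the 5′ end was 12174 to 12630 nt with glucagon and 12616 to 12784 nt in the control (exact permutation p = 0.111, adjusted p = 0.222, n = 4 a side).

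Between bands, the upper band had more of its clusters in deep first introns, 23.7% ± 0.773 against 19.9% ± 3.00 in the lower band (SD, n = 4), a difference of 3.84 points (exact permutation of bands within treatments, two-sided, p = 0.0556, adjusted p = 0.111 over 2 tests). It was 2.40 points without glucagon lower band replicate 1. The enriched share was 4.53% ± 1.10 in the upper band and 4.91% ± 1.88 in the lower band (exact permutation p = 0.778, n = 4 a side), and this difference of −0.377 points was 0.726 without the same library.

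Single genes had too few libraries for a test, so counts are given as they were. Of the 1169 genes with an enriched cluster, 4 (0.342%) had more enriched clusters with glucagon in each band, both libraries above both controls, and 47 (4.02%) had fewer. In deep later introns the shares were 0.253% and 3.28% of 792 genes. Counting all clusters of first introns, 0.236% and 7.74% of 5514 genes had more and fewer, and in later introns 0.205% and 8.68% of 6845 genes. Cluster totals were lower with glucagon as well, 129909 ± 84086 against 202936 ± 58522 in the control (SD, n = 4), and their part in these counts was not tested. In cultured bulk cells, fewer cells of a type and less RNA per cell cannot be told apart.

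Cpt1a led the genes with more enriched clusters after glucagon. It had 15 and 18 in lower band glucagon libraries and 11 and 25 in upper band glucagon libraries, against 2 and 8 in lower band control libraries and 7 and 8 in upper band control libraries. Its clusters of any fold numbered 27 and 80 in lower band glucagon libraries, 59 and 96 in upper band glucagon libraries, 36 and 46 in lower band control libraries and 43 and 57 in upper band control libraries. The enriched share of its clusters was therefore also higher in both glucagon libraries of each band. It was 55.6% and 22.5% in lower band glucagon libraries and 18.6% and 26.0% in upper band glucagon libraries. Controls had 5.56% and 17.4% for the lower band and 16.3% and 14.0% for the upper band. The 55.6% was 15 of 27 clusters in glucagon lower band replicate 1, the smallest library. Over all genes the upper band share of deep first-intron clusters was also higher with glucagon, 5.31% and 5.58% against 3.28% and 3.94%. Whether the Cpt1a difference in that band goes beyond this shift was not tested.

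Tbc1d8, a Rab GTPase regulator gene, had 2 and 3 enriched clusters in lower band glucagon libraries and 2 and 10 in upper band glucagon libraries, against 0 in each of the 4 controls. Its clusters of any fold numbered 15 and 97, then 55 and 106 in the same glucagon libraries, against 12 and 26 in lower band control libraries and 45 and 47 in upper band control libraries. In the order lower band, then upper band, Mob3b, a kinase adaptor gene, had 2 and 4 then 2 and 5 with glucagon, against 1 and 0 then 1 and 1 in the control. Arfgef2, an Arf exchange factor gene, had 1 and 2 then 2 and 5 with glucagon, against 0 and 0 then 0 and 1 in the control. These 3 genes thus rested on few clusters.

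Agap1 led the genes with fewer. It had 5 and 11 enriched clusters in lower band glucagon libraries and 46 and 71 in upper band glucagon libraries, against 82 and 84 in lower band control libraries and 101 and 109 in upper band control libraries. Its clusters of any fold were also fewer, 59 and 185 then 167 and 237 with glucagon, against 229 and 248 then 353 and 348 in the control. The enriched share of its clusters was 8.47% and 5.95% in lower band glucagon libraries, against 35.8% and 33.9% in lower band control libraries. In the upper band the share overlapped, with 27.5% and 29.96% for glucagon and 28.6% and 31.3% for the control.

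Ski had 7 and 7 enriched clusters in lower band glucagon libraries and 16 and 39 in upper band glucagon libraries, against 35 and 44 then 46 and 56 in the control. Actn1 had 3 and 4 then 9 and 20 with glucagon, against 35 and 40 then 21 and 30 in the control. Pxn, which encodes the focal adhesion adaptor paxillin, had 1 and 5 then 7 and 16 with glucagon, against 15 and 20 then 26 and 42 in the control. Smad3, a TGF-β signal transducer gene, had 0 and 5 then 5 and 11 with glucagon, against 20 and 26 then 20 and 19 in the control. Unc5b, a netrin receptor gene, had 0 and 1 then 3 and 11 with glucagon, against 14 and 22 then 17 and 31 in the control. In the lower band Agap1 and these 5 genes also had a lower enriched share with glucagon, without overlap. In the upper band the shares did not overlap for Pxn, Smad3 and Unc5b and overlapped for Agap1, Ski and Actn1.

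Myh9 likewise had fewer in both bands, with 9 and 14 then 15 and 22 for glucagon, against 28 and 31 then 23 and 41 in the control. Rxra, Iffo2, Zmiz1 and Cmip had counts that overlapped or tied between treatments in at least 1 band. Rxra had 1 and 40 enriched clusters in lower band glucagon libraries and 34 and 79 in upper band glucagon libraries, against 38 and 38 in lower band control libraries and 30 and 46 in upper band control libraries. Zmiz1 had 14 and 31 then 16 and 37 with glucagon, against 32 and 26 then 27 and 25 in the control.

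**Figure D5:**
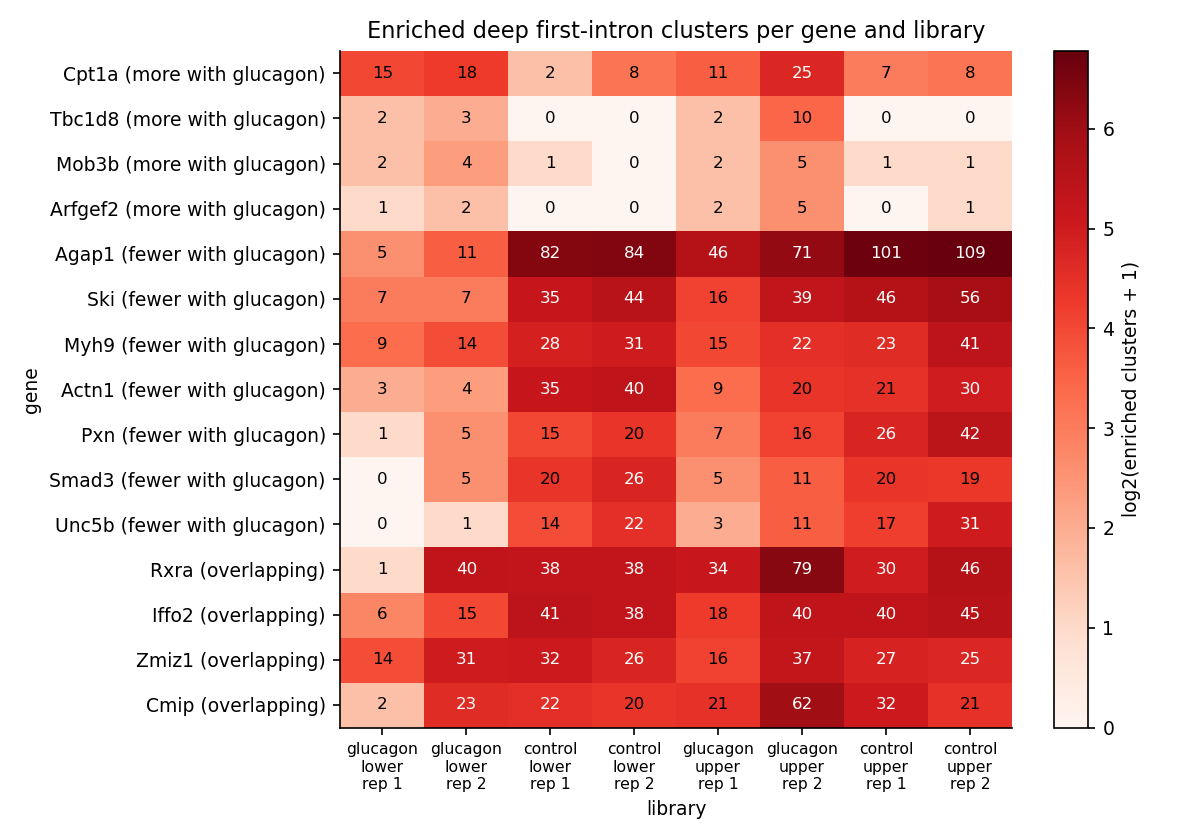
Number of enriched deep first-intron clusters per gene (rows) and library (columns), printed in each cell and coloured by log2(count + 1). Rows are the genes with most enriched clusters and a selection of genes whose counts did not overlap between treatments in either band. The selection holds all 4 genes with more enriched clusters after glucagon in each band, but only some of the 47 with fewer. Cpt1a, Tbc1d8, Mob3b and Arfgef2 are higher in glucagon libraries, Agap1, Ski, Myh9, Actn1, Pxn, Smad3 and Unc5b are lower, and in the genes marked overlapping the treatments overlap or tie in at least 1 band.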

How the data were processed

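The 8 immunoprecipitated libraries each had a deposited file of clusters, and each of the 4 groups a list of reproducible peaks. The submitters' processing notes name cutadapt, STAR and the build mm10. Which peak caller was used, and how reproducible peaks were chosen, is not given in the sources used here. The files have no header. From the values, the deposited columns are a −log10 p-value, capped at 400, and a log2 fold over input, both the authors' own for each cluster and used here only to filter and describe clusters within a library. Inputs and read counts were not used.

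Clusters were placed by midpoint and strand in GENCODE M21. The enriched share of each library was compared between classes of clusters by exact two-sided sign flips over 8 libraries, and treatments or bands by exact two-sided permutation within strata, with Benjamini-Hochberg adjustment within each family. The tests were tried on simulated data, and the placement was checked on a sample of the real clusters against a simpler computation. Tools were scipy 1.17.1, pandas 2.3.3, numpy 2.4.6, matplotlib 3.10.9 and Python 3.11.15. Alternatives covered both thresholds, the margin, the placement rule, ambiguous clusters, single genes, single libraries, 4 units, bins and reference points of distance, the replicate block and clusters in exons of the other strand.

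Coordinates are 1-based on mm10. Sequences came from the RefSeq promoter table and GENCODE M21 transcripts, and 6 overlapping readings were compared with 0 differences. The rule for named genes took the 8 genes with most enriched clusters, 4 genes per group with the highest site fold, up to 6 per direction of treatment, up to 3 per gene list, and the 4 farthest and 4 nearest recurrent sites. 1 gene that this rule names is not reported here. Magi1, Tcf20, Cd81, Nectin1, Cdkn1a, Ube2g1, Morf4l1 and Nfe2l2 were singled out after their values were seen. Members and lists were chosen with earlier results of these data known.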

Additional observations from a re-analysis of the deposited data

How the results depend on the processing

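The excess of first over later introns, of first introns over all other clusters, of clusters near the 5′ end over far ones, of that contrast in first over later introns, and of far clusters near another 5′ end kept their direction and their side of the threshold under every alternative run except 4 units and, for the contrast in first over later introns, distance from the transcript's 5′ end in place of the upstream exon. There it was 1.59 points, against 10.7, and missed the threshold (exact p = 0.430). With bands averaged into 4 units the values were again 1.99, 2.33, 9.20, 2.60 (short minus long introns), 10.7 and 3.64 points, with an exact p of 0.125, the smallest possible there. Leaving out 1 library at a time gave 1.86 to 2.19 points for first minus later, 2.16 to 2.52 for first minus rest, 8.84 to 9.68 for near minus far, 1.70 to 2.84 for short minus long, 10.2 to 11.2 for near minus far between intron kinds and 3.13 to 4.14 for other 5′ ends (exact p = 0.0156 each). Sizes moved with the settings. First minus later was 3.14 points at a log2 fold of at least 2, 0.585 at 4, 0.875 at a −log10 p of at least 5, 1.18 with a margin of 1000 nt and 0.609 within 7 bins of distance. First minus rest was 3.95, 0.816, 0.767 and 1.37 points under the same thresholds and margin, and 0.684 with each gene counted once. Near minus far was 13.4, 3.33, 6.08 and 5.40 points, and far clusters near another 5′ end gave 6.96, 1.17, 1.92 and 3.58. Short minus long introns turned to −3.82 points among clusters up to 5000 nt from the 5′ end.

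The treatment and band differences of the enriched share had no stable direction. Glucagon minus control was −0.360 points at a −log10 p of at least 5, −0.907 in the lower band alone and −0.640 to 1.57 with 1 library left out. Upper minus lower band was 1.49 points at a log2 fold of at least 2, 0.724 at a −log10 p of at least 5 and −1.48 to 0.726 with 1 library left out. The treatment difference of first minus later introns was 0.331 points in the upper band alone and −0.909 to −0.653 with 1 library left out. The share of clusters in deep first introns differed by −3.48 to −0.598 points between treatments and 2.40 to 5.28 between bands with 1 library left out, and the log2 median distance by −0.0452 to −0.0187. The causes were not tested.

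With the replicate number as a block (16 assignments) no call changed, since none was made. The treatment difference of −2.04 points in the share of deep first-intron clusters had an exact p of 0.125, and the band difference of 3.84 points the same, both the smallest possible. The other treatment and band differences, 0.463, −0.0319, −0.781 and −0.377, had exact p-values of 0.25 to 0.75 with the block. Replicate 1 minus replicate 2, across 1622 genes, correlated at 0.110 to 0.253 between groups, with 2 pairs a comparison, so the numbers were not taken to pair the libraries.

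Sites enriched in all 8 libraries numbered 50 at a log2 fold of at least 2, 3 at 4, 6 at a −log10 p of at least 5 and 4 with a margin of 1000 nt, against 16. Genes with an enriched cluster numbered 743 at a log2 fold of at least 4 and 703 at a −log10 p of at least 5, against 1169. Fewer clusters can pass in each case by construction of the stricter settings. The number of clusters, lowest in glucagon lower band replicate 1, limits every share of that library.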

Other observations

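Agreement between replicates set how far single clusters can be read. Of a library's enriched deep first-intron clusters, 55.2% ± 20.5 overlapped any cluster of the other replicate of the group and 23.8% ± 10.5 an enriched one (SD, n = 8 libraries). For deep later introns these shares were 55.7% ± 18.4 and 20.3% ± 8.29. The lowest was glucagon lower band replicate 2, where 18.03% of enriched deep first-intron clusters overlapped a cluster and 6.27% an enriched cluster of replicate 1. The highest was control upper band replicate 1, at 82.9% and 37.8%.

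In Arntl the 7 enriched deep first-intron clusters were all from glucagon libraries, 0 and 2 for the lower band and 3 and 2 for the upper band, against 0 in each of the 4 control libraries. Arntl clusters of any fold overlapped between treatments, with 6 and 48 then 21 and 49 for glucagon. Controls had 16 and 23 then 28 and 43. Akt2 had 1 and 2 in the glucagon upper band and 0 in the other 6 libraries. Both genes were picked out after their counts were seen, and neither difference was tested. How many genes had such a 1-sided pattern was not counted, so no background share stands beside them.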
